A study of Mus musculus with 6 samples.

Results

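The 10 genes described here encode the core of the BCL-2 family, and they were taken by name from the deposited count table, where all 10 of 10 were found among 14481 genes. They are the pro-survival genes Bcl2, Bcl2l1 and Mcl1, the effectors Bax and Bak1, and the BH3-only genes Bcl2l11, Bbc3, Pmaip1, Bid and Bad. All 10 passed the filter on low counts and stood among the 14319 genes tested. RNA came from sorted mouse CD8+ T cells of wild-type genotype, activated on plates coated with anti-CD3 (1 µg/ml), with interleukin 2 (0.1 µg/ml) and soluble anti-CD28 (1 µg/ml). After 1 day the cells received conditioned medium (CM) from astrospheres labelled pSTAT3- or pSTAT3+, after the phosphorylated form of the transcription factor STAT3, and RNA was taken 2 days later, at day 3. The groups, STAT3- CM and STAT3+ CM, had 3 libraries each, so the T cells of both groups shared genotype, activation and cytokine and differed in the source of the medium. The labels name neither the mice nor the cultures behind the replicates, so a p-value here speaks to the spread between libraries alone, and cells without CM were not analysed here.

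BCL-2 proteins decide whether the outer mitochondrial membrane is kept intact. Bax and Bak1 encode the proteins that can form pores in it and release cytochrome c, Bcl2, Bcl2l1 (BCL-XL) and Mcl1 encode proteins that hold them in check, and the BH3-only proteins carry death signals by occupying the pro-survival proteins or by activating the effectors. In T cells, interleukin 2 and interleukin 7 sustain Bcl2 and Mcl1, costimulation through CD28 induces Bcl2l1, and BIM, the product of Bcl2l11, removes activated T cells when cytokine is withdrawn.

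Total counts ran from 43346089 to 53630514 per library. The 7 CD8 T cell markers were all present, with a summed level of 2402 to 2630 CPM (the count of a gene relative to its TMM-scaled library size) in STAT3- CM, against 2425 to 3158 in STAT3+ CM, whereas none of 5 erythroid markers was in the tested genes. Of 6 B cell markers only Cd79b was tested, at 7.40 to 10.7 CPM in STAT3- CM, against 10.9 to 11.8 in STAT3+ CM. Among dendritic cell markers 6 of 10 were tested, and their summed level was 86.5 to 128 CPM in STAT3- CM, against 56.6 to 68.5 in STAT3+ CM. Most of that sum was Cd74 (means 74.7 and 38.9 CPM). Zbtb46, H2-Aa and H2-Eb1 were also lower in STAT3+ CM, whereas H2-Ab1 (7.50 and 8.21) was slightly higher and Itgax (0.955 and 0.920) nearly level. The groups did not overlap for Cd74, Zbtb46, H2-Aa and H2-Eb1. Over all genes DESeq2 called H2-Aa (adjusted p = 0.00435) and Cd74 (adjusted p = 0.0124), and edgeR called neither (adjusted p = 0.534 and 0.563). Flt3, Clec9a, Xcr1 and Siglech were absent from the table. Of 7 macrophage and monocyte markers 3 were tested, at 3.28 to 10.2 and 3.48 to 5.57 CPM in sum, and the sum of 4 of 5 NK cell markers was 698 to 771 and 794 to 846 CPM. Nearly all of the NK sum came from Nkg7 (means 536 and 603 CPM), Eomes (122 and 124) and Klrd1 (74.2 and 90.2). Klrb1c, the remaining NK marker tested, stood at only 1.52 and 1.41 CPM. The 4 CD4 T cell markers summed to 9.92 to 24.0 and 12.9 to 18.3 CPM, and 2 of 6 astrocyte markers to 13.6 to 16.1 and 8.64 to 15.8, with Gfap, Aqp4, S100b and Slc1a3 absent. The part of these other cells in the values below was not tested, and in bulk RNA fewer cells of a type and less RNA per cell cannot be told apart. On the leading pair of principal components of all genes STAT3- CM replicate 3 lay apart from the others of its group, while the STAT3+ CM libraries were all scattered, with replicate 1 at the low end of the second component. The members are also given with that STAT3- library and STAT3+ CM replicate 1 left out, a pair chosen with earlier results of these data known.

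No member passed the threshold for a difference between the media. In the quasi-likelihood test of edgeR, adjusted by Benjamini and Hochberg, 0 of 10 members passed an adjusted p of 0.05, where 0% of the 14319 genes did, and 0 had an unadjusted p under 0.05, where 3.64% of the genes did. DESeq2 also called 0 of the 10, against 0.335% of all genes, and in 0 of the 10 did the libraries of one group lie apart from those of the other, against 7.95% of all genes. Of the log2 fold changes, called log2 differences below (STAT3+ CM minus STAT3- CM), 4 were positive and 6 negative, from -0.29 to 0.22, with a median of -0.02 beside 0.00 over all genes tested.

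**Figure D1:**
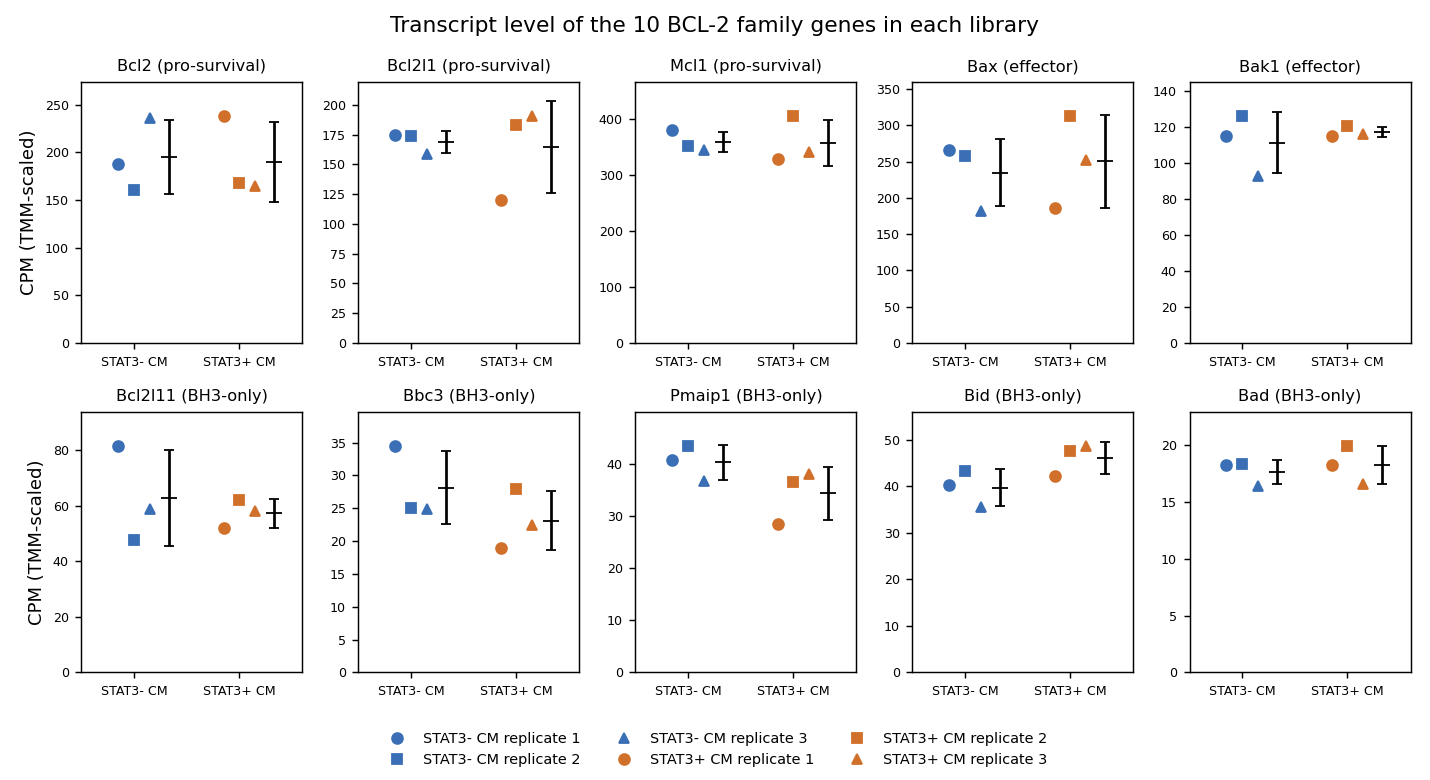
Level of each of the 10 members in CPM (linear axes starting at 0) in the 3 libraries of STAT3- CM (blue) and the 3 of STAT3+ CM (orange), with the group mean and SD in black. The groups overlap in every panel, and Bcl2 is high where Bax is low, in STAT3- CM replicate 3 and STAT3+ CM replicate 1.

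Among the pro-survival genes, Bcl2, which encodes the founding inhibitor of mitochondrial death, stood at 188, 160.1 and 237 CPM in replicates 1 to 3 of STAT3- CM and at 238, 168 and 164 CPM in those of STAT3+ CM. The high values belonged to 1 library of each group, and the group means of 195 ± 38.7 and 190.0 ± 41.6 CPM (SD, n = 3) were close (log2 difference -0.04 with SE 0.19; edgeR adjusted p = 0.997). Bcl2l1, the gene of BCL-XL, stood at 175, 174 and 159 CPM and at 120.0, 183 and 190.3 CPM in the same order. STAT3+ CM replicate 1 lay below all other libraries, and the means were 169 ± 9.05 and 164 ± 38.6 CPM (log2 difference -0.04 with SE 0.17; edgeR adjusted p = 0.997). Mcl1, whose short-lived protein restrains BAK1 and BIM, was the member with the highest read count, at 380.1, 352 and 346 CPM and at 329, 405 and 340.3 CPM. Its highest library was 1.23 times its lowest, and its group means were 359 ± 18.3 and 358 ± 41.1 CPM (log2 difference -0.01 with SE 0.13; edgeR adjusted p = 0.999).

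Of the effectors, Bax stood at 265, 257 and 181 CPM in replicates 1 to 3 of STAT3- CM and at 186, 312 and 253 CPM in those of STAT3+ CM. Here the low values belonged to 1 library of each group, the same libraries that were high for Bcl2, and the means were 235 ± 46.5 and 250.2 ± 63.5 CPM (log2 difference 0.09 with SE 0.21; edgeR adjusted p = 0.989). Bak1 stood at 115, 126 and 92.5 CPM and at 115, 120.3 and 116 CPM. STAT3- CM replicate 3 was again the lowest, while the STAT3+ CM libraries lay close together at 117 ± 2.92 CPM against 111 ± 17.0 (log2 difference 0.07 with SE 0.14; edgeR adjusted p = 0.989).

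The BH3-only genes held the largest positive and negative log2 fold changes of the 10. Bid, whose protein links caspase 8 at death receptors to mitochondria, stood at 40.3, 43.4 and 35.4 CPM in STAT3- CM, against 42.2, 47.5 and 48.7 CPM in STAT3+ CM. The groups overlapped through the lowest STAT3+ CM library, and the means were 39.7 ± 4.0 and 46.1 ± 3.45 CPM (log2 difference 0.22 with SE 0.13; edgeR unadjusted p = 0.125, adjusted p = 0.989). Bbc3, the gene of the p53-induced activator PUMA, stood at 34.5, 25.1 and 24.8 CPM and at 18.97, 27.9 and 22.4 CPM. STAT3- CM replicate 1 was the highest library and STAT3+ CM replicate 1 the lowest, 1.82-fold apart, the widest range of the 10 members, and the means were 28.1 ± 5.52 and 23.1 ± 4.52 CPM (log2 difference -0.29 with SE 0.18; edgeR adjusted p = 0.989).

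Pmaip1, which encodes NOXA, the BH3-only partner of MCL1, stood at 40.8, 43.4 and 36.7 CPM in STAT3- CM, against 28.5, 36.4 and 38.0 CPM in STAT3+ CM. Of the STAT3+ CM libraries replicate 3 alone exceeded the lowest of STAT3- CM, and the means were 40.3 ± 3.36 and 34.3 ± 5.10 CPM (log2 difference -0.23 with SE 0.14; edgeR adjusted p = 0.989). Bcl2l11 stood at 81.6, 47.7 and 58.8 CPM and at 51.9, 62.1 and 57.9 CPM. Its spread came from STAT3- CM, which held both the highest and the lowest library, and the means were 62.7 ± 17.3 and 57.3 ± 5.14 CPM (log2 difference -0.13 with SE 0.18; edgeR adjusted p = 0.989); without STAT3- CM replicate 1 its log2 fold change was 0.11. Bad, whose protein is held inactive by survival kinases, had the narrowest range, at 18.2, 18.3 and 16.4 CPM and at 18.3, 19.9 and 16.6 CPM, with a log2 difference of 0.05 (SE 0.14; edgeR adjusted p = 0.993).

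A p that misses the threshold does not show that the levels were equal, so the intervals bound what these libraries allow. The 95% intervals of the log2 fold change were -0.45 to 0.38 for Bcl2, -0.42 to 0.34 for Bcl2l1 and -0.29 to 0.28 for Mcl1. They were -0.37 to 0.55 for Bax and -0.23 to 0.37 for Bak1. Among the BH3-only genes they were -0.54 to 0.28 for Bcl2l11, -0.70 to 0.13 for Bbc3, -0.55 to 0.09 for Pmaip1, -0.07 to 0.50 for Bid and -0.27 to 0.36 for Bad. Each of the 10 intervals thus lay inside a 2-fold change in either direction, as did those of 79.2% of all genes tested; the intervals hold gene by gene and not jointly.

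**Figure D2:**
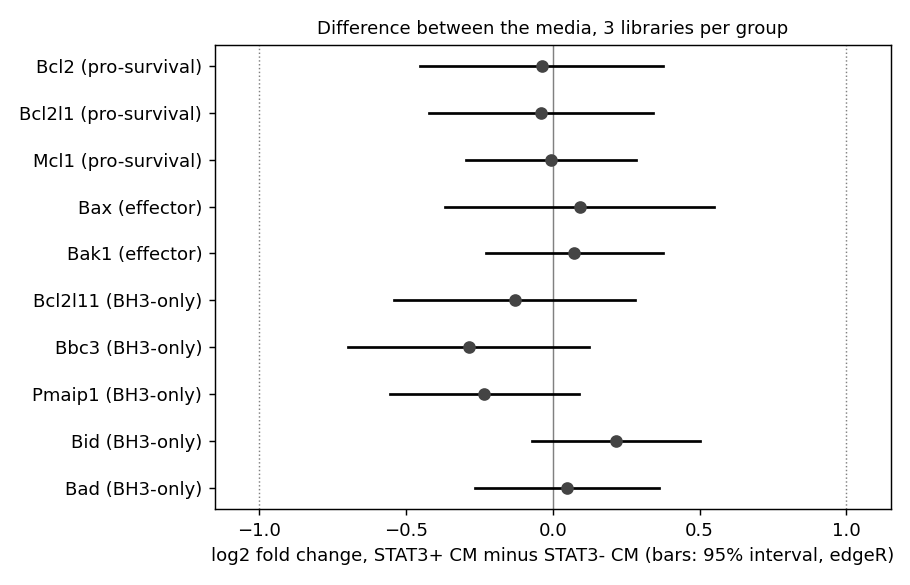
Log2 fold change of each member (points, STAT3+ CM minus STAT3- CM, 3 libraries per group) with its 95% interval from edgeR (bars); dotted lines mark a 2-fold change. All 10 bars cross 0 and none reaches a dotted line, and Bbc3 reaches lowest, to -0.70.

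With STAT3- CM replicate 3 left out together with STAT3+ CM replicate 1, which left 2 libraries per group, edgeR again called 0 of the 10, with a lowest adjusted p of 0.895. There the log2 fold changes of Bbc3 (-0.24), Pmaip1 (-0.18), Bid (0.20), Bax (0.11), Bcl2l11 (-0.11) and Bcl2 (-0.07) kept their signs, and those of Bcl2l1 (0.10), Mcl1 (0.03), Bak1 (-0.03) and Bad (0.00) turned. Over all 18 alternative settings only Bbc3, Pmaip1 and Bid kept their sign throughout, with ranges of -0.44 to -0.11, -0.31 to -0.11 and 0.14 to 0.28. Bbc3 had an unadjusted p of 0.0474 without STAT3+ CM replicate 2, the only setting in which a member fell under 0.05.

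Levels can be compared between genes only per length, and CPM per kilobase of the median annotated coding transcript gave the following order over all 6 libraries. Bax was highest at 303 ± 63.0 CPM per kilobase (SD, n = 6; lowest library 226), above the range of Mcl1, at 168 ± 13.3 (154 to 189). Mcl1 lay in turn above Bcl2l1, at 102 ± 15.4 (73.4 to 116), whose range met that of Bak1, at 69.3 ± 6.91 (56.2 to 76.5). From Bak1 down to Bad each neighbour in the order overlapped the next: Bbc3 at 52.8 ± 10.9, Bcl2 at 38.4 ± 7.18, Bid at 31.5 ± 3.56, Bcl2l11 at 24.1 ± 4.72 and Bad at 20.8 ± 1.505 CPM per kilobase. Pmaip1 was lowest at 14.7 ± 2.00 CPM per kilobase, with its highest library (17.1) under the lowest of Bad (18.95). The effector genes and the pro-survival genes other than Bcl2 thus filled the upper 4 places, and the BH3-only genes and Bcl2 the lower ones. The upper 4 places held with the longest transcript as the length, whereas Bbc3, whose median and longest coding transcripts are 485 and 1814 bases, fell from place 5 to place 7 and from 52.8 to 14.1 CPM per kilobase. With that length Pmaip1, at 13.7 CPM per kilobase, stood at place 8, and Bad, at 11.7, was the lowest, so the order among the lower places depends on the length used.

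Members were also compared by count ratios within each library, in which the library's scaling cancels. The counts are not divided by transcript length, so a ratio can be compared between libraries but does not show which gene was higher. The ratio of Bax to Bcl2 counts, an effector against a pro-survival gene, was 1.41, 1.61 and 0.766 in STAT3- CM replicates 1 to 3 and 0.780, 1.86 and 1.54 in STAT3+ CM replicates 1 to 3. Bax counts thus exceeded Bcl2 counts in 4 libraries and fell short of them in 1 library of each group, a 2.43-fold range. Per kilobase, however, Bax stood at 226 to 390 CPM and Bcl2 at 31.9 to 47.4, so Bax was the higher in every library. The group means of the log2 ratio were 0.26 ± 0.57 and 0.39 ± 0.66 (SD, n = 3). The ratio of Bcl2l11 to Bcl2, a death signal against the protein that binds it, was 0.433, 0.298 and 0.249 and then 0.218, 0.370 and 0.353. Its range was 1.98-fold over the 6 libraries, and the group means of the log2 ratio were -1.65 ± 0.41 and -1.71 ± 0.42.

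The ratio of Bcl2l11 to Mcl1 ranged less, from 0.136 to 0.215, with both extremes in STAT3- CM. The ratio of Pmaip1 to Mcl1, NOXA against its target, was 0.107, 0.123 and 0.106 in STAT3- CM, against 0.0867, 0.0899 and 0.112 in STAT3+ CM, so STAT3+ CM held the lowest libraries but replicate 3 lay among those of STAT3- CM. The ratio of Bad to Bcl2l1 was 0.103 to 0.106 in STAT3- CM, against 0.0873 to 0.152 in STAT3+ CM, where replicate 1, low in Bcl2l1, was the highest. The groups overlapped in all 8 ratios computed, and no test was made of them.

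**Figure D3:**
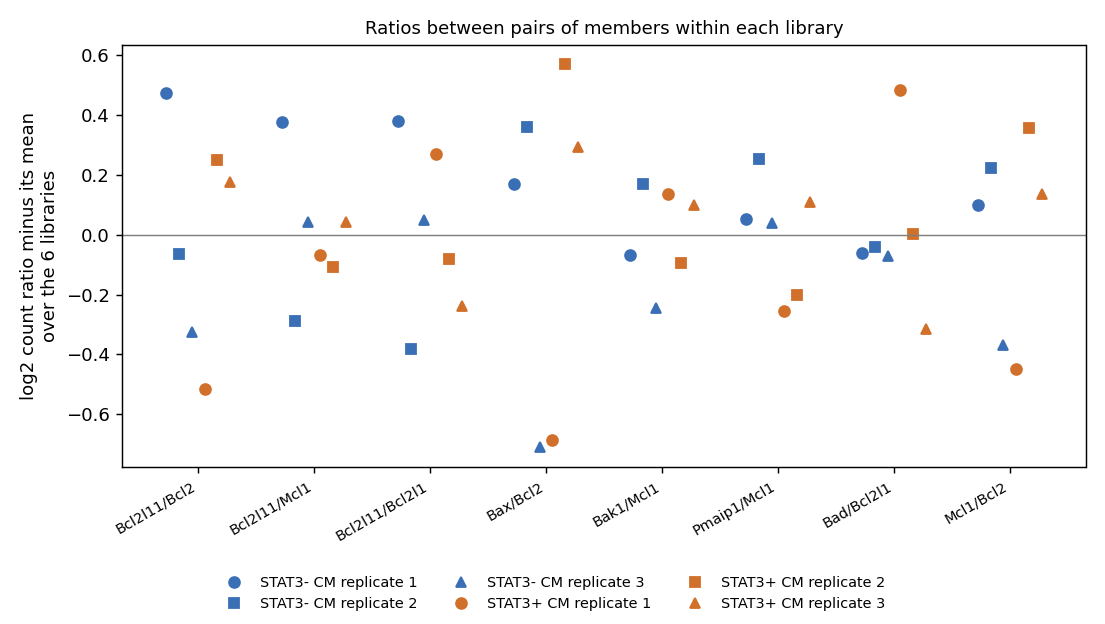
Log2 count ratio of 8 pairs of members in each library, minus the mean of the 6 libraries (symbols mark the libraries, blue STAT3- CM, orange STAT3+ CM). The groups overlap for each ratio, and the widest range is that of Bax to Bcl2, with STAT3- CM replicate 3 and STAT3+ CM replicate 1 lowest.

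For 7 of the 10 members, all but Bbc3, Pmaip1 and Bid, the pooled SD within groups on the log2 scale was larger than the size of the log2 fold change. This SD was 0.34 for Bax, above that of 72.9% of the genes tested, 0.29 for Bcl2 (64.8%) and 0.29 for Bcl2l11 (64.5%), whereas Bad at 0.11 (12.9%) and Mcl1 at 0.12 (17.0%) had the smallest. STAT3- CM replicate 3 was the lowest library for 4 members (Bax, Bak1, Bid and Bad) and STAT3+ CM replicate 1 for another 4 (Bcl2l1, Mcl1, Bbc3 and Pmaip1). Bax and Bcl2 had the most unlike profiles of any pair of members, with a root mean square difference of 0.51 between their log2 CPM values centred on each gene's mean. Bcl2 was also the farthest member from each of the others, and Mcl1 and Bad were the nearest pair, at 0.08.

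STAT3- CM replicate 3 and STAT3+ CM replicate 1 were the lowest libraries together for 3 of the 10 members, Bax, Bak1 and Bcl2l1, and the highest together for Bcl2, where 13.7% of all genes tested had them as the lowest pair and 13.7% as the highest. For Bak1 the margin was very small, with STAT3+ CM replicate 1 at 114.8 CPM and STAT3- CM replicate 1 at 115.0. Because Bax and Bbc3 are textbook targets of p53, the transcription factor of the DNA damage response, p53 and 14 of its targets or regulators were read beside them. Of these 15 genes 7 had the same lowest pair: Aen, Ccng1, Cdkn1a, Eda2r, Gtse1, Mdm2 and Phlda3. Sesn1 went the other way, with these libraries as its highest pair. Ccng1, the cyclin G1 gene, stood at 599.7, 659.8 and 439.5 CPM in replicates 1 to 3 of STAT3- CM and at 454, 614 and 643 CPM in those of STAT3+ CM. Phlda3, which encodes an inhibitor of the survival kinase AKT, stood at 60.9, 61.9 and 36.5 CPM and at 34.0, 71.8 and 58.2 CPM, low in the same libraries as Bax. Trp53 itself stood at 197, 207 and 159 CPM and at 173, 179 and 166 CPM, and Bbc3 and Pmaip1, both lowest in STAT3+ CM replicate 1, were next lowest in STAT3+ CM replicate 3 (Bbc3) and replicate 2 (Pmaip1).

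Of 14 genes of cytokine survival input, 4 shared the high pair with Bcl2: Il7r, Jak3, Pim1 and Stat5b (28.6%, where 13.7% of all genes did). Il2rg in the same list had these libraries as its lowest pair. The high pair was not particular to that list. Of 20 genes that regulate members' transcripts or proteins, 5 (25%) had it as the highest and 2 (10%) as the lowest. Il7r, the interleukin 7 receptor chain, stood at 47.1, 37.9 and 92.3 CPM and at 84.2, 49.9 and 45.1 CPM. Pim1, a survival kinase gene induced by cytokines, stood at 264, 261 and 426 CPM and at 405, 309 and 319.8 CPM. Ccng1, Phlda3, Il7r and Pim1 were chosen for naming after their values were seen, the pair of libraries cuts across the media, and what the pair has in common was not tested.

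**Figure D4:**
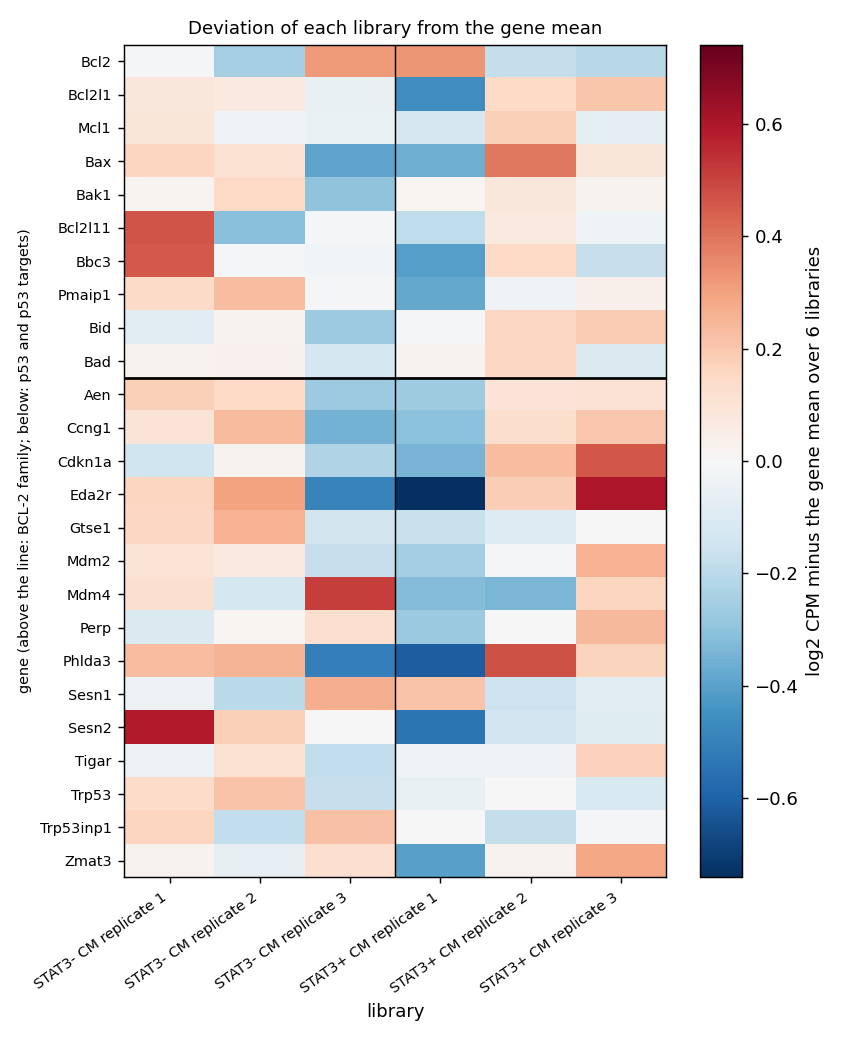
Log2 CPM of each library minus the gene's mean over the 6 libraries, for the 10 members (above the line) and p53 with 14 of its targets or regulators (below it); red is above and blue below the mean. Bax and 7 of the 15 lower genes are lowest in STAT3- CM replicate 3 and STAT3+ CM replicate 1, where Bcl2 and, below the line, Sesn1 are highest.

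The promoters of Bcl2 and Bax are shown because these genes stood at opposite ends of their ranges in STAT3- CM replicate 3 and STAT3+ CM replicate 1. Each line gives the 250 bases before the RefSeq start, 5′ to 3′ on the gene's strand in GRCm38.p6, with GC boxes (GGGCGG or its reverse complement) and, in Bax, the decamer of the p53 consensus in capitals. The Bcl2 window is chr1:106714291-106714540, minus strand, and the Bax window chr7:45466899-45467148, minus strand; neither overlaps an annotated exon of its own gene.
Bcl2: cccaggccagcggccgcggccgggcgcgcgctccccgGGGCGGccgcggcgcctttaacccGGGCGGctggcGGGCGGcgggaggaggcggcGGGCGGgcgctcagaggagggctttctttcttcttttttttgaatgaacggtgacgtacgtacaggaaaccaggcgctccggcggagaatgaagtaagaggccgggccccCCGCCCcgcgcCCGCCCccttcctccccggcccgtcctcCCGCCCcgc
Bax: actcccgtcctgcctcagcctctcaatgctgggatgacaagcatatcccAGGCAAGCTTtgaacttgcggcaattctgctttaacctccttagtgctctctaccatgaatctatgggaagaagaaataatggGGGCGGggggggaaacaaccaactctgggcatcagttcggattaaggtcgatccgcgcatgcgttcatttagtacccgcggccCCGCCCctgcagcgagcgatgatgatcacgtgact
The Bcl2 window held 7 GC boxes and the Bax window 2, and 32.7% of 32851 promoter windows of the same length held at least 1. Among members, 10 of 15 windows, from 7 of 9 genes, held at least 1, and a Bbc3 window also held 7. The Bax window held 1 match to the p53 decamer, AGGCAAGCTT, from base -201 to -192 before the start. No other of the 15 windows of the 9 members searched held one, against 7.13% of all windows. Pmaip1 was not searched. The Bax window also held the E-box CACGTG from base -9 to -4, as did 1 window of Bbc3 (6.02% of all). The STAT motif TTCNNNGAA was in none of the 15 windows (7.02% of all), and the forkhead motif GTAAACA in 1 window each of Bcl2l11 and Bbc3 (3.17%). Both strands were searched, Bbc3 windows overlap each other, and a match of letters is no evidence of binding. Some windows lay in annotated exons of their own gene. This held for all 250 bases of the Bak1 window and of some Bcl2l1 windows, 197 bases of 1 Bad window and 29 of the Bid window.

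Of 94 other genes of the pathway tested, in 7 lists, 0 passed the threshold over all genes by edgeR. An unadjusted p under 0.05 was found for 6 of the 94 (6.38%, where 3.64% of all genes had one), and the groups did not overlap for 12 (12.8%, where 7.95% of all genes did not). Of the other pro-survival genes, Bcl2a1b, Bcl2a1d and Bcl2l2 were tested, and Bcl2a1a and Bcl2l10 were absent from the table. Bcl2a1b, an NF-kB-induced relative of Mcl1, had means of 60.2 ± 6.49 CPM (STAT3- CM) and 61.1 ± 10.4 (STAT3+ CM) (log2 difference 0.02 with SE 0.15), with near-identical copies among which reads can be misassigned. Bcl2a1d (-0.01) and Bcl2l2 (0.00) lay as near to 0, and 0 of these 3 had an unadjusted p under 0.05. Of 12 other BH3-only and BCL-2-like genes 10 were tested, 8 had positive values, the median was 0.09, and 0 had an unadjusted p under 0.05. Bmf, a BH3-only gene whose protein is released from the cytoskeleton, was low at 4.0 ± 2.41 and 2.39 ± 0.578 CPM (log2 difference -0.72 with SE 0.40). Its libraries stood at 2.76, 2.45 and 6.78 CPM in STAT3- CM, against 1.98, 2.14 and 3.05 CPM in STAT3+ CM. STAT3- CM replicate 3 thus lay far above the rest. The hypoxia-induced mitophagy gene Bnip3 stood at 34.8 ± 12.1 and 45.5 ± 6.35 CPM (0.39, SE 0.22), and Bnip3l had 0.10.

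Downstream of the mitochondria, 19 genes of the apoptosome, caspases and their inhibitors had 11 positive and 8 negative log2 differences (median 0.04). By unadjusted p under 0.05 there was 1, Cycs, the gene of cytochrome c, at 219, 225 and 186 CPM in STAT3- CM, against 252, 312 and 239.7 CPM in STAT3+ CM. Its STAT3+ CM libraries all lay above those of STAT3- CM, but it did not pass over all genes (log2 difference 0.35 with SE 0.14; edgeR unadjusted p = 0.0328, adjusted p = 0.989). The caspase inhibitor genes Birc2 (-0.23, SE 0.14) and Xiap (-0.23, SE 0.14) came next by p.

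In the death receptor pathway, which reaches the mitochondria through Bid, 6 of 13 genes had positive and 7 negative values with a median of -0.02. Tnfsf10, the death ligand TRAIL, stood at 20.8, 20.9 and 17.8 CPM in STAT3- CM, against 14.9, 9.34 and 10.4 CPM in STAT3+ CM (log2 difference -0.78 with SE 0.19; edgeR unadjusted p = 0.00203, adjusted p = 0.702). All its STAT3+ CM libraries lay below those of STAT3- CM, and DESeq2 called it (adjusted p = 0.0457), the only call by DESeq2 in these 7 lists. Ripk3, a kinase of necroptosis, had 0.25 (SE 0.12) and Cflar, the caspase 8 inhibitor FLIP, -0.23 (SE 0.18).

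Among p53 and its targets 6 of 15 genes had positive and 9 negative values, with a median of -0.02, and 1 had an unadjusted p under 0.05. That gene, Sesn2, a stress-induced inhibitor of mTORC1, stood at 64.8, 48.8 and 43.2 CPM in STAT3- CM, against 29.6, 39.1 and 40.5 CPM in STAT3+ CM (log2 difference -0.52 with SE 0.18; edgeR unadjusted p = 0.0154, adjusted p = 0.989). The p53 inhibitor gene Mdm4 (-0.34, SE 0.19) and the mitotic gene Gtse1 (-0.19, SE 0.13) followed by p.

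Of 14 genes of cytokine survival input 5 had positive and 9 negative values, with a median of -0.08. Il4ra, the interleukin 4 receptor chain, was the 1 with an unadjusted p under 0.05, at 144, 149.7 and 162 CPM and then 191, 182 and 182 CPM (log2 difference 0.28 with SE 0.11; edgeR unadjusted p = 0.0324, adjusted p = 0.989), followed by Il15ra (0.26, SE 0.13) and Stat5a (-0.24, SE 0.14). Of 20 genes that regulate members' transcripts or proteins 9 had positive and 11 negative values, with a median of -0.02. Irf8, a transcription factor known to act on BCL-2 family genes in blood cells, stood at 295, 311 and 381 CPM in STAT3- CM, against 453, 464 and 516 CPM in STAT3+ CM, with no overlap (log2 difference 0.54 with SE 0.14; edgeR unadjusted p = 0.00309, adjusted p = 0.702). Trib3, a stress-induced pseudokinase gene, had -0.52 (SE 0.20, unadjusted p = 0.0275), and Huwe1, the ubiquitin ligase that marks MCL1 for destruction, stood at 328, 306 and 324 CPM and at 242, 152 and 320.1 CPM (-0.42, SE 0.22). The low Huwe1 values belonged to STAT3+ CM replicates 1 and 2, while Mcl1 was lowest in replicate 1 and highest in replicate 2.

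The genes whose profile over the 6 libraries was most like a member's were found among 9332 genes with a mean of at least 5 CPM by the root mean square difference of centred log2 CPM. For Bcl2 they were Pcmtd2 (0.04) and Fam169b (0.04), for Bcl2l1 Cmtm3 (0.015) and Prr3 (0.05), and for Mcl1 Prkcsh (0.04) and Irf3 (0.04). For Bax they were Supt4a (0.03) and Dolk (0.05), and for Bak1 Brcc3 (0.02) and Impa1 (0.02). For the BH3-only genes they were Tef (0.09) and Tnfsf14 (0.10) for Bcl2l11, Rbm4b (0.08) and Tnfsf9 (0.08) for Bbc3, Nfkb2 (0.04) and S100a6 (0.05) for Pmaip1, Cox11 (0.02) and Taf13 (0.03) for Bid, and Ap3s2 (0.02) and Map2k2 (0.02) for Bad. Bcl2l11 and Bbc3 had the least close neighbours, and with only 6 libraries such likeness is a description only.

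Some member counts could hold reads of other genes, since the strand setting of the counting is not given in the sources used here. In the GRCm38 annotation, exons of Bid overlap those of Bcl2l13 on the other strand by up to 628 bases, and Bcl2l13 had a mean of 74.4 CPM. Exons of Bad overlap those of Gpr137 (517 bases, mean 10.8 CPM), those of Bak1 overlap Ggnbp1 (257 bases, 0.871 CPM), and those of Bcl2 overlap the antisense gene D630008O14Rik (497 bases). Bax shares 140 bases with Gm45808 on its own strand, and the other 5 members share none.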

How the data were processed

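Polyadenylated RNA of 6 libraries, 3 per group by their titles, was measured as whole-number read counts per gene, deposited by the authors in 1 table with 1 column per library. Per the submitters' processing notes the tools were Cufflinks 2.2.1, TopHat2 2.0.10, SAMtools 0.1.19, Bowtie 1.0.0 and FastQC, with the build GRCm39; which program counted the reads, with what annotation and strand setting, is not given in the sources used here. Total counts were 43346089 to 53630514, and the lowest gene total was 40, so genes below some unstated limit were already missing.

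From the counts, filterByExpr kept 14319 of 14481 genes, TMM factors scaled the libraries, and edgeR 4.0.16 (R 4.3.3) compared the groups by its robust quasi-likelihood F test (edgeR 4 method), two-sided, with Benjamini-Hochberg adjustment over all genes tested and a threshold of 0.05. SEs were obtained by dividing the size of the log2 fold change by the root of F, and intervals use the test's degrees of freedom. Profiles use log2 CPM with a prior count of 2, and log2 ratios add 0.5 to each count. Values per kilobase use the median length of coding transcripts in GENCODE M21. Promoter sequences are RefSeq's (GRCm38.p6), matched by symbol and used for 9 of 10 members. Windows on 1 chromosome were left out of the search of members, and no window of Pmaip1 was searched. The workflow was tested on simulated data. Alternatives were RLE, upper-quartile and no scaling factors, no or a stricter filter (at least 1 CPM in 3 libraries), DESeq2 1.42.0, limma-voom (limma 3.58.1) with and without quality weights, a block for the replicate number, the legacy quasi-likelihood fit, removal of mitochondrially encoded genes, and libraries left out.

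The labels state no pairing of equal replicate numbers, and the main comparison used none, so whether they were paired is not known. Members, lists and ratios were chosen with earlier results of these data known, and the motifs after the values were seen. Genes named from lists are the 3 with the smallest p in each, and the 2 nearest profiles per member. Others were named after their values were seen: Trp53, Ccng1, Phlda3, Sesn1, Il7r, Pim1, Jak3, Stat5b, Il2rg, the 7 genes of the lowest pair and the cell type markers given singly.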

Additional observations from a re-analysis of the deposited data

How the results depend on the processing

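Over 18 alternative settings 0 of 10 members were called in each, with adjusted p from 0.575 upward, and 157 of 180 member values kept the sign of the reported one. Only Bbc3, Pmaip1 and Bid kept theirs in all settings. Mcl1 was 0.0011 with RLE scaling, 0.0083 with upper-quartile scaling, 0.0012 by DESeq2 and 0.026 with STAT3- CM replicate 3 left out together with STAT3+ CM replicate 1. In that last fit Bcl2l1 was 0.10, Bak1 -0.028 and Bad -0.0016. By limma-voom with quality weights Bcl2 was 0.044, Bax -0.0041 and Bak1 -0.00098. With 1 library left out at a time, Bcl2 ran from -0.23 to 0.12, Bcl2l1 from -0.16 to 0.14, Mcl1 from -0.10 to 0.053, Bcl2l11 from -0.29 to 0.11, Bax from -0.10 to 0.27, Bak1 from -0.042 to 0.17 and Bad from -0.018 to 0.11. Over all genes, 0 were called by edgeR (521 at an unadjusted p under 0.05), 48 by DESeq2, 16 by limma-voom with quality weights, 10 without both libraries named above, and 0 to 18 with 1 library left out, 18 without STAT3- CM replicate 3 and 1 without STAT3- CM replicate 1; the cause was not tested. With the replicate number as a block, 0 genes and 0 members were called (709 genes at an unadjusted p under 0.05), and every member kept its sign. Deviations of equally numbered libraries correlated at -0.261, 0.281 and 0.182 across genes. Those of unequally numbered libraries ran wider, from -0.495 (STAT3- CM replicate 3 with STAT3+ CM replicate 2) to 0.423 (STAT3- CM replicate 1 with STAT3+ CM replicate 2). Of the death receptor genes DESeq2 called 1, Tnfsf10. No scaling moved the median of all genes by over 0.1. With 3 libraries per group the median SE over all genes was 0.18 on the log2 scale, which limits the size of change that can be called.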
